A study of Caenorhabditis elegans with 8 samples.

Results

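Described here are 4 genes of polyamine synthesis and transport in the nematode Caenorhabditis elegans, out of 46739 genes listed in each library. They are odc-1, smd-1, spds-1 and catp-5. They were selected on their gene symbols, at a time when their levels and fold changes between 5-Ph-IAA and ethanol were already known. Those values are therefore given as a description with no test, and no support is drawn from them. RNA of whole worms was sequenced in 8 libraries of 1 strain, whose labels describe it as a neuronal auxin-inducible degron strain for DAF-15, the worm Raptor and a subunit of the TORC1 kinase complex. The degron works through a plant F-box protein, which directs a tagged protein to the proteasome in the presence of auxin. Of the libraries, 4 came from worms given 5-Ph-IAA, an auxin analog that starts the degradation, and 4 from worms given ethanol. Treatment began at the L4 larval stage and lasted 24 h, and the animals were collected on day 1 of adulthood after feeding on OP50 bacteria. All 8 libraries carry the degron, and no library of worms without it was analysed here, so effects of the compound itself and of losing the protein cannot be told apart. The sources used here give neither the promoter that limits degradation to neurons nor the dose of 5-Ph-IAA.

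Polyamines are small positively charged molecules that bind nucleic acids and are needed for translation and growth. Ornithine decarboxylase makes putrescine from ornithine, S-adenosylmethionine decarboxylase makes the aminopropyl donor, and spermidine synthase joins the products of both enzymes into spermidine. Cells also take polyamines up, and in worms the P5-type ATPase CATP-5 has been linked to this uptake. Spermidine in turn serves to modify the translation factor eIF5A with hypusine, and in many animals the decarboxylases are the regulated steps of the pathway.

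The libraries held from 7354710 to 10893322 reads assigned to genes. A level is a count scaled to CPM, reads of the gene per 1000000 reads in genes after trimmed mean of M-values (TMM) scaling. Each log2 fold change sets 5-Ph-IAA over ethanol and is followed by its standard error (SE). The transcript of daf-15 stood at 119.1 ± 6.20 CPM with 5-Ph-IAA and 121.1 ± 6.89 CPM with ethanol (SD, n = 4 each), which does not check the treatment because degradation acts on protein. Of the tissue markers that matched 1 identifier, all 10 of intestine, germ line and neurons each, 8 of 8 of muscle and 5 of 7 of epidermis passed the filter on low counts. The epidermal dpy-7 and rol-6, picked out after their values were seen, were near 0. Of 9 matched markers of sperm 1 passed, and of 9 matched markers of the early embryo 1 passed. The numbers 1 to 4 that the labels give to libraries of both groups were treated as pairs, since libraries of the same number deviated together.

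The locations are those of Ensembl release 115 (assembly WBcel235). The gene odc-1 (WBGene00003844) lies on chromosome V, from 6898540 to 6900223 on the minus strand, with 3 exons and a coding sequence for 422 residues. The gene smd-1 (WBGene00004875) lies on chromosome I, from 14048094 to 14051010 on the minus strand, and codes for 368 residues. The gene spds-1 (WBGene00012909) lies on chromosome II, from 12806899 to 12810872 on the plus strand, and codes for 366 residues. The gene catp-5 (WBGene00019493) lies on chromosome X, from 8089785 to 8098863 on the minus strand, and its longest coding sequence gives 1202 residues. No annotated gene overlaps odc-1, smd-1 or spds-1, and the single gene inside catp-5, the noncoding K07E3.10, had 0 reads in all libraries and shares no exon base with it.

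Of the 4 genes, odc-1 alone had values that did not overlap between the groups. This gene codes for ornithine decarboxylase, which carries out the step that commits ornithine to the pathway. It stood at 41.3, 44.4, 55.2 and 52.2 CPM in 5-Ph-IAA replicates 1 to 4, against 28.4, 25.8, 39.8 and 32.7 CPM in ethanol replicates 1 to 4. The lowest 5-Ph-IAA library was thus above the highest ethanol library, by a small margin. The means were 48.3 ± 6.52 CPM with 5-Ph-IAA and 31.7 ± 6.14 CPM with ethanol (SD, n = 4 each), a fold change of 1.52 (log2 0.60, SE 0.125). Between 349 and 476 reads with 5-Ph-IAA and between 206 and 351 reads with ethanol stood behind these levels.

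Within the numbered pairs odc-1 was higher with 5-Ph-IAA in 4 of 4. The 5-Ph-IAA library had 1.46 times the level of its ethanol partner in pair 1 and 1.72 times in pair 2. In pair 3 the ratio was 1.39 and in pair 4 it was 1.595. The ratios lay closer together than the levels did, because replicates 3 and 4 were high in both groups. With the replicate number as a block, the log2 fold change was 0.62 with an SE of 0.080, smaller than the SE of 0.125 without it. The libraries of one group varied more for this gene than for the other members: the coefficient of variation was 13.5% with 5-Ph-IAA and 19.4% with ethanol. Its estimated biological coefficient of variation in the fit was 11.4%, against 8.05% for the trend over genes of the same abundance.

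**Figure D1:**
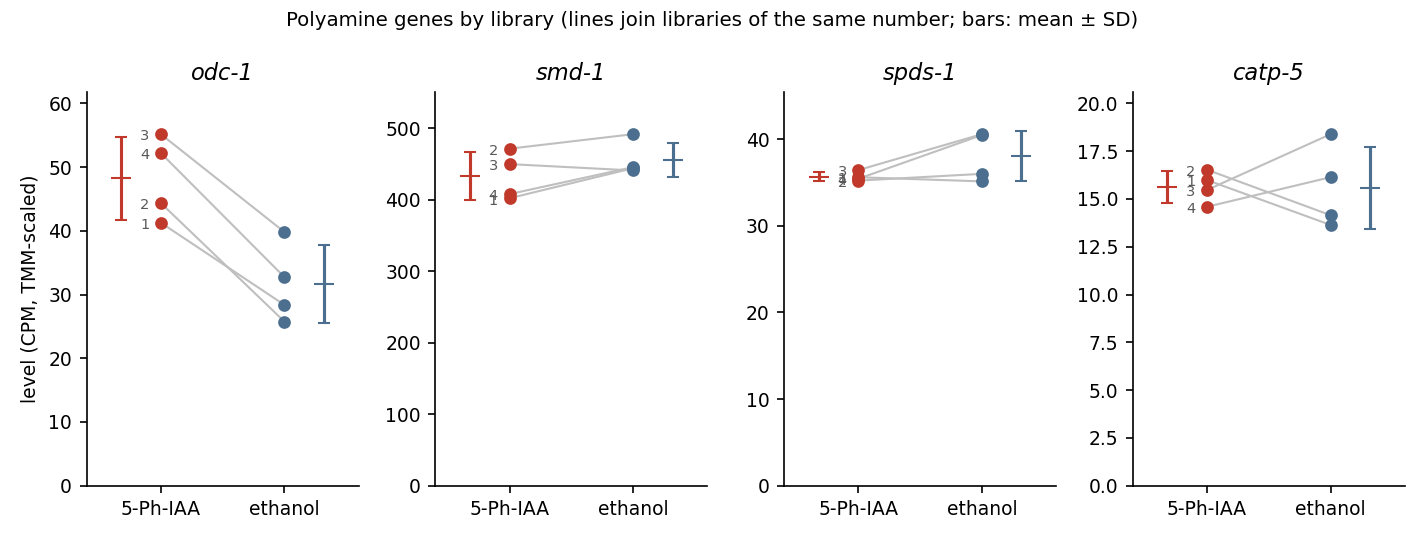
Level in CPM (vertical axis, from 0) of the 4 genes in 5-Ph-IAA (left in each panel) and ethanol libraries (right). Points are libraries, grey lines join libraries of the same number, and bars give the mean ± SD (n = 4). The odc-1 points run from 41.3 to 55.2 CPM with 5-Ph-IAA and from 25.8 to 39.8 CPM with ethanol, while the groups overlap in the other panels.

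In the pathway's other arm, smd-1 was lower with 5-Ph-IAA in most pairs by a small amount. This gene codes for S-adenosylmethionine decarboxylase, whose product donates the aminopropyl group of spermidine. It stood at 402.3, 471.7, 450.1 and 408.1 CPM in 5-Ph-IAA replicates 1 to 4, against 444.4, 492.0, 441.2 and 445.9 CPM in ethanol replicates 1 to 4. The groups overlapped, and ethanol replicate 2 stood apart from the other ethanol libraries. The means were 433.0 ± 33.4 CPM with 5-Ph-IAA and 455.9 ± 24.2 CPM with ethanol (SD, n = 4 each), a fold change of 0.950 (log2 -0.075, SE 0.057). The 5-Ph-IAA library was the higher one in 1 of 4 pairs. With 3226 to 4780 reads per library this was the most deeply counted of the 4 genes, and its biological coefficient of variation of 6.21% was close to the trend of 6.15%.

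For spds-1, which codes for spermidine synthase, the 5-Ph-IAA libraries lay within the lower part of the ethanol range. Its levels were 35.6, 35.2, 36.4 and 35.4 CPM in 5-Ph-IAA replicates 1 to 4, against 35.1, 36.0, 40.6 and 40.5 CPM in ethanol replicates 1 to 4. The 5-Ph-IAA values spanned little more than 1 CPM, whereas ethanol replicates 3 and 4 stood above all other libraries. The means were 35.7 ± 0.531 CPM with 5-Ph-IAA and 38.1 ± 2.89 CPM with ethanol (SD, n = 4 each), a fold change of 0.936 (log2 -0.095, SE 0.085), and the 5-Ph-IAA library was higher in 1 of 4 pairs.

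The transporter gene catp-5 showed no common direction among pairs. It stood at 16.0, 16.5, 15.5 and 14.6 CPM in 5-Ph-IAA replicates 1 to 4, against 13.6, 14.2, 18.4 and 16.1 CPM in ethanol replicates 1 to 4. The ethanol libraries enclosed the 5-Ph-IAA libraries on both sides. The means were 15.6 ± 0.825 CPM with 5-Ph-IAA and 15.6 ± 2.16 CPM with ethanol (SD, n = 4 each), a log2 fold change of 0.0036 (SE 0.124). The ratio of 5-Ph-IAA to ethanol was 1.17 in pair 1 and also 1.17 in pair 2, but 0.841 in pair 3 and 0.904 in pair 4. With 99 to 173 reads per library it was the least deeply counted of the 4 genes, and a change of the size seen for spds-1 or smd-1 would have been smaller than its SE.

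**Figure D2:**
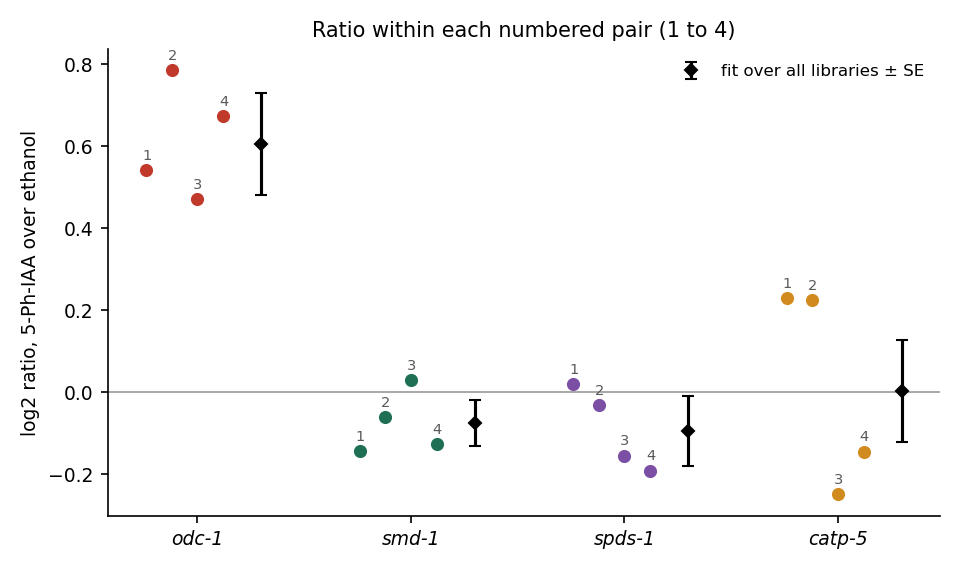
Log2 ratio of 5-Ph-IAA over ethanol (vertical axis) within each numbered pair for the 4 genes; coloured points are pairs 1 to 4 and black diamonds are the fit over all libraries ± SE. All odc-1 pairs lie between 0.47 and 0.78, and those of the other genes between -0.25 and 0.23.

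The place of odc-1 among the tested genes is a description, since its fold change was known when it was picked. Of all 12021 tested genes, 132 had a log2 fold change as high as that of odc-1 or higher, odc-1 included. Of 7768 tested genes with a mean of at least 10 CPM, 11 had a log2 fold change as high as that of odc-1 or higher, odc-1 included. Of the same genes, 5 had a lowest pair ratio as high as its own or higher, again with odc-1 among them. The median absolute log2 fold change of these genes was 0.0483. In either direction, 1844 of them differed by as much as spds-1 or more, 2541 by as much as smd-1 and 7442 by as much as catp-5. The median log2 fold change of the 4 genes was -0.036, against -0.0009 for all 12021 tested genes. All 4 genes passed the filter on low counts.

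In edgeR's quasi-likelihood fit over all genes, 0 of the 4 genes passed an adjusted p of 0.05 without the replicate block, where 0.0998% of the tested genes passed in either direction. With the replicate number as a block, 1 of the 4 passed, odc-1, where 0.732% of the tested genes passed. The groups did not overlap for 1 of the 4, again odc-1, against 2.65% of the tested genes in either direction and 1.54% with 5-Ph-IAA higher. Since the genes were picked with these values known, nothing is read from the counts.

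**Figure D3:**
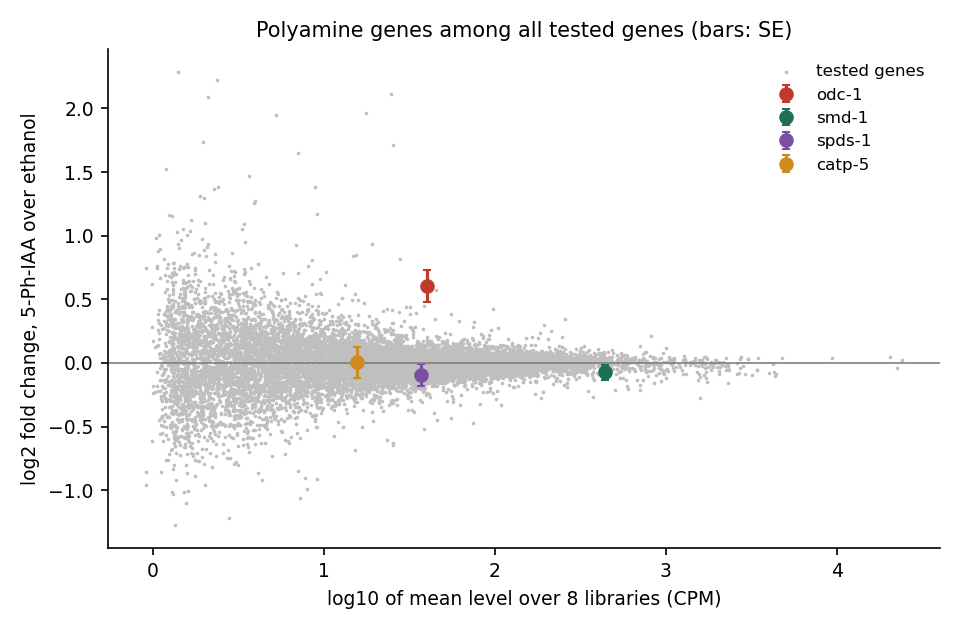
Log2 fold change of 5-Ph-IAA over ethanol (vertical axis) against the log10 of the mean CPM over 8 libraries (horizontal axis) for 12021 tested genes in grey, with the 4 polyamine genes in colour (bars: SE). At 0.60, odc-1 lies above nearly all genes of its abundance, and the other 3 genes lie between -0.095 and 0.0036.

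Per length of exon, smd-1 had the highest level of the 4 genes and catp-5 the lowest in both groups. The level of smd-1 lay between 180.6 and 211.7 CPM per kb with 5-Ph-IAA and between 198.0 and 220.8 CPM per kb with ethanol. That of spds-1 was 30.1 ± 0.448 CPM per kb with 5-Ph-IAA and 32.1 ± 2.44 CPM per kb with ethanol (SD, n = 4 each). That of odc-1 was 30.6 ± 4.12 CPM per kb with 5-Ph-IAA and 20.1 ± 3.89 CPM per kb with ethanol. The level of catp-5, a much longer transcript, was 3.49 ± 0.184 CPM per kb with 5-Ph-IAA and 3.48 ± 0.482 CPM per kb with ethanol. Only the neighbours odc-1 and spds-1 in this order overlapped in any library, and they did so with 5-Ph-IAA alone.

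The proportion between the enzymes' transcripts followed odc-1. With 5-Ph-IAA the level of odc-1 per kb was 1.015 ± 0.128 times that of spds-1, with libraries from 0.870 to 1.14, against 0.622 ± 0.0832 times with ethanol, with libraries from 0.537 to 0.737. The level of smd-1 per kb was 6.44 ± 0.942 times that of odc-1 with 5-Ph-IAA and 10.5 ± 2.40 times with ethanol. Between smd-1 and spds-1 the proportion was 6.46 ± 0.507 with 5-Ph-IAA and 6.42 ± 0.717 with ethanol, so it differed by less than the spread between libraries. In RNA of whole animals, fewer cells of a type and less RNA per cell cannot be told apart.

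**Figure D4:**
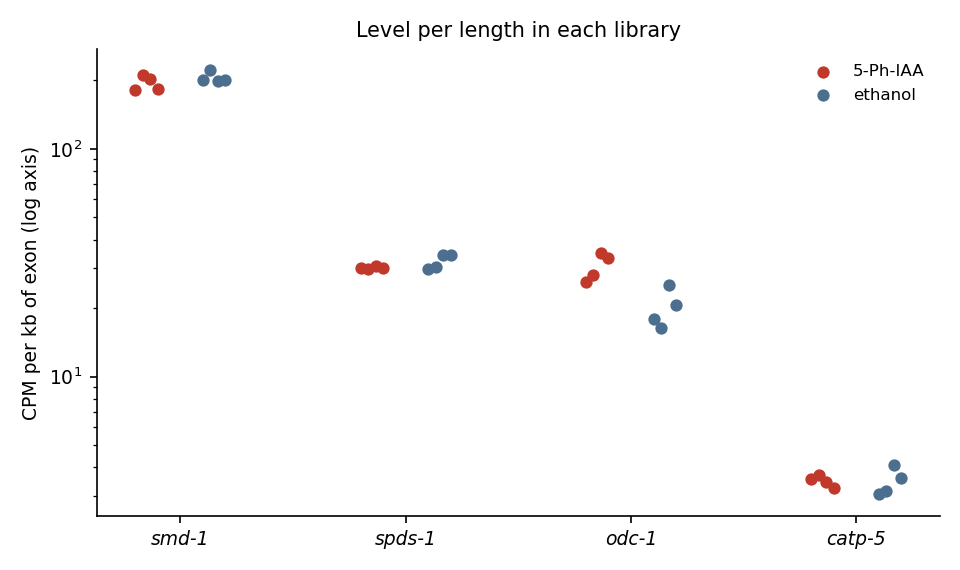
Level per length (CPM per kb of exon, log axis) of the 4 genes in each 5-Ph-IAA (left of each pair) and ethanol library. The genes smd-1 and catp-5 stand apart from the rest at 180.6 to 220.8 and 3.04 to 4.10 CPM per kb, and odc-1 reaches the level of spds-1 with 5-Ph-IAA but not with ethanol.

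Genes of metabolism around the pathway, and relatives of catp-5, were then read from the same fit, as 6 lists of 47 symbols that leave out the 4 genes. Of 42 tested genes in these lists, 0 passed in either direction without the block in edgeR, DESeq2 or limma-voom. With the block 0 were higher and 2 were lower in edgeR. At an unadjusted p under 0.05 in edgeR stood 4 of 42 without the block (9.52%, against 4.41% of all tested genes) and 7 of 42 with it (16.7%, against 6.91%). The lists were chosen with earlier results of these data known, so nothing is read from these shares. Without the block 0.0998% of all tested genes passed, and with it 0.732%. The median log2 fold change of the 42 genes was 0.0048.

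The 2 genes that fell with the block, sams-1 and metr-1, act upstream of smd-1 in the supply of its substrate. The gene sams-1 codes for an S-adenosylmethionine synthetase, which makes that substrate from methionine. It had 178.6, 151.0, 160.9 and 185.1 CPM in 5-Ph-IAA replicates 1 to 4, against 235.3, 191.3, 179.6 and 212.0 CPM in ethanol replicates 1 to 4. The groups overlapped, yet in 4 of 4 pairs the 5-Ph-IAA library was the lower one. The log2 fold change under the block was -0.27 (SE 0.047), with an adjusted p of 0.000337 in blocked edgeR and of 0.788 in edgeR without the block. The gene metr-1 codes for methionine synthase, which makes methionine from homocysteine. It averaged 157.2 ± 13.3 CPM with 5-Ph-IAA and 186.2 ± 24.8 CPM with ethanol (SD, n = 4 each), and 5-Ph-IAA was again lower in 4 of 4 pairs. The blocked fit gave a log2 fold change of -0.24 (SE 0.046), with an adjusted p of 0.00137 in blocked edgeR and of 0.999 in edgeR without the block. Leaving out 1 pair at a time in blocked edgeR gave adjusted p-values of 9.02e-05 to 0.00877 for sams-1 and of 0.00537 to 0.0299 for metr-1. Both genes were named because they passed the blocked fit, so these refits add no separate support. Leaving out 1 library at a time in edgeR without the block, neither passed. The lowest edgeR adjusted p was then 0.134 for sams-1 and 0.476 for metr-1. In blocked DESeq2 sams-1 passed (adjusted p = 0.0335), whereas metr-1 did not (adjusted p = 0.11).

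The other 9 tested genes of the methionine cycle list did not pass. The methylenetetrahydrofolate reductase gene mthf-1 stood at 216.9 ± 6.33 CPM with 5-Ph-IAA and 237.4 ± 7.32 CPM with ethanol (SD, n = 4 each), and its groups did not overlap (adjusted p of 0.321 in blocked edgeR and of 0.999 in edgeR with no block). It was named after its values were seen, as the single list gene of 42 without overlap (2.38%, against 2.65% of all tested genes). The cystathionine beta-synthase gene cbs-1 had the widest difference in this list, 14.5 ± 1.26 CPM with 5-Ph-IAA and 11.7 ± 1.99 CPM with ethanol (log2 0.31, SE 0.141, edgeR adjusted p = 0.999). The abundant ahcy-1, which removes the by-product of methylation, stood at 1092 ± 48.2 CPM with 5-Ph-IAA and 1082 ± 82.5 CPM with ethanol.

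Ornithine is the substrate of ornithine decarboxylase, and genes of ornithine, arginine and proline metabolism gave 0 calls of 5 tested in edgeR with or without the block. All 5 had log2 fold changes above 0, from 0.026 to 0.15, and that of alh-6 alone exceeded its SE. The arginase gene argn-1, whose enzyme releases ornithine from arginine, stood at 62.9 ± 2.60 CPM with 5-Ph-IAA and 61.5 ± 2.56 CPM with ethanol (SD, n = 4 each). The ornithine aminotransferase gene oatr-1 stood at 204.4 ± 14.1 CPM with 5-Ph-IAA and 198.8 ± 10.1 CPM with ethanol. The genes alh-6, alh-13 and prdh-1, which code for enzymes of proline synthesis and breakdown, had log2 fold changes of 0.080 (SE 0.068), 0.15 (SE 0.149) and 0.026 (SE 0.139).

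Downstream of spermidine, the eIF5A genes and the hypusine enzymes gave 0 calls of 4 tested in edgeR in either fit. The eIF5A gene iff-1, needed in the germ line, stood at 910.3 ± 14.9 CPM with 5-Ph-IAA and 925.7 ± 62.2 CPM with ethanol (SD, n = 4 each). Its relative iff-2 stood at 196.6 ± 23.1 CPM with 5-Ph-IAA and 195.7 ± 14.5 CPM with ethanol. The log2 fold change of dhps-1, the deoxyhypusine synthase gene that uses spermidine as its substrate, was 0.077 (SE 0.089), and that of dohh-1, which codes for the hydroxylase of the next step, was 0.075 (SE 0.063). Among 5 tested genes of amine breakdown 0 passed in either fit. The oxidase gene hpo-15 stood at 165.2 ± 12.1 CPM with 5-Ph-IAA and 157.9 ± 14.6 CPM with ethanol, and amx-3 had the widest log2 fold change of this list at 0.25 (SE 0.202).

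The relatives of catp-5 gave 0 calls as well. Of the P5-type ATPases, catp-6 stood at 112.9 ± 7.10 CPM with 5-Ph-IAA and 114.6 ± 5.69 CPM with ethanol, and catp-8 at 184.9 ± 4.27 CPM with 5-Ph-IAA and 187.1 ± 14.5 CPM with ethanol (SD, n = 4 each). The gene catp-7 stood at 63.4 ± 6.19 CPM with 5-Ph-IAA and 57.3 ± 5.43 CPM with ethanol, and it was higher with 5-Ph-IAA in 4 of 4 pairs (log2 0.14, SE 0.080, adjusted p of 0.637 in blocked edgeR and of 0.999 in edgeR with no block). Of 14 tested P-type ATPases of other kinds 0 passed in either fit, with log2 fold changes from -0.12 to 0.12. The widest was that of mca-2, a calcium pump gene (0.12, SE 0.078). The sodium pump gene eat-6 stood at 821.8 ± 41.1 CPM with 5-Ph-IAA and 792.0 ± 63.0 CPM with ethanol.

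**Figure D5:**
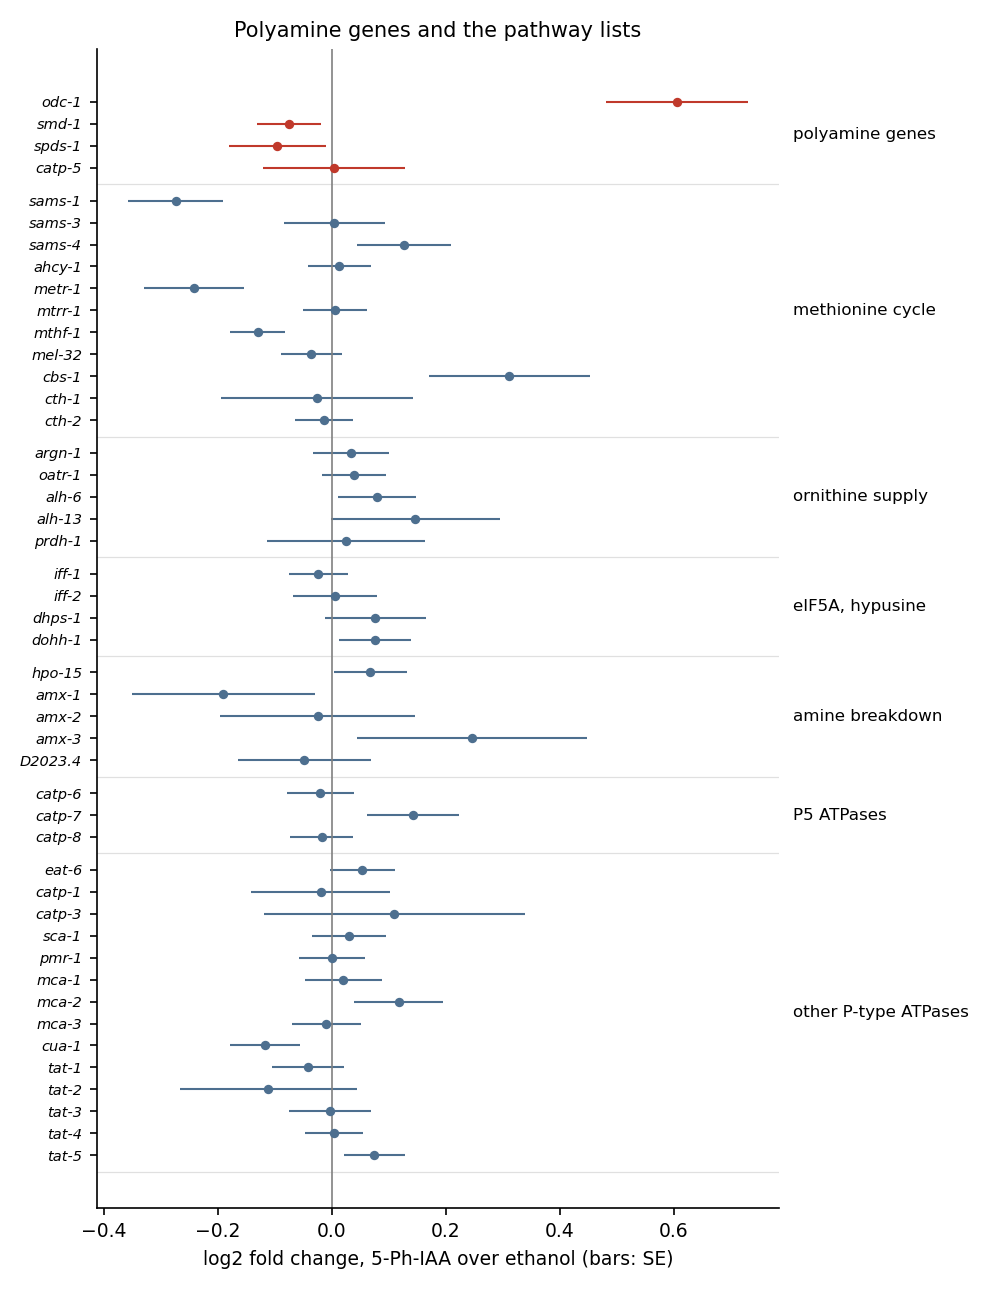
Log2 fold change of 5-Ph-IAA over ethanol (horizontal axis, bars: SE, fit without the block) for the 4 polyamine genes in red and 42 tested genes of the pathway lists in blue. The value of odc-1, 0.60, lies outside the range of the lists, whose widest value in either direction is 0.31.

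Tissue markers were read beside odc-1, since whole animals mix tissues. Of 45 tested markers in 7 lists, 0 passed in edgeR in either fit, and 0 passed in DESeq2 or limma-voom. At an unadjusted p under 0.05 in edgeR stood 2 without the block (4.44%, against 4.41% of all tested genes) and 4 with it (8.89%, against 6.91%). The 10 germ line and oocyte markers summed to 6226 to 6657 CPM with 5-Ph-IAA and 5848 to 6836 CPM with ethanol, with a median log2 fold change of 0.012. The 10 intestine markers had a median of 0.0020, with values from -0.14 to 0.24. The 10 neuron markers had a median of -0.030, with values from -0.41 to 0.17, of which 4 were above 0. The median was -0.014 for the 8 muscle markers and 0.050 for the 5 tested epidermis markers. The 9 matched sperm markers summed to 8.20 to 9.28 CPM with 5-Ph-IAA and 6.33 to 11.4 CPM with ethanol. The 9 matched markers of the early embryo summed to 5.09 to 6.36 CPM with 5-Ph-IAA and 6.25 to 9.51 CPM with ethanol, and 0 of them were at 0 in all libraries. Most of that sum came from elt-7, the 1 gene of this list that was tested. It stood at 3.68 ± 0.351 CPM with 5-Ph-IAA and 5.03 ± 0.539 CPM with ethanol (SD, n = 4 each), with groups that did not overlap (edgeR adjusted p = 0.999). Singled out after its values were seen, it was 1 of 45 tested markers without overlap (2.22%, against 2.65% of all tested genes). Whether elt-7 came from embryos in these samples was not tested, so the sum of this list is not read as an amount of embryos. The part of the embryo markers in the value of odc-1 was not tested either.

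The tested genes next to odc-1 on the chromosome were not higher with 5-Ph-IAA beyond their SE. The nearest gene, K11C4.1, ends 42 bases from the end of odc-1 on the other strand and had 10 reads over all libraries, too few to be tested. Beyond it K11C4.2 had a log2 fold change of -0.52 (SE 0.353). On the other side unc-68, the ryanodine receptor gene, lies 1457 bases away on the same strand. It stood at 31.5 ± 4.83 CPM with 5-Ph-IAA and 31.1 ± 4.48 CPM with ethanol (SD, n = 4 each), a log2 fold change of 0.020 (SE 0.117). These neighbours were chosen by position.

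With group means removed, the deviations of odc-1, spds-1 and catp-5 had the same sign in 4 of 4 ethanol libraries, but not in the 5-Ph-IAA libraries. There odc-1 and catp-5 shared the sign in 0 of 4 libraries, spds-1 and catp-5 in 1 of 4, and odc-1 and spds-1 in 3 of 4. Over both groups the correlation of deviations in log2 CPM was 0.83 for spds-1 and catp-5, 0.75 for odc-1 and spds-1, and 0.57 for odc-1 and catp-5. Those of smd-1 with odc-1, spds-1 and catp-5 were -0.25, -0.25 and -0.085. In each case the points share their libraries and depth. For odc-1 the closest of 7767 genes were hmg-1.1 (0.99) and gldi-1 (0.98), and 59 genes reached 0.9. Neither shared its difference between the groups, with log2 fold changes of -0.028 and 0.029. For smd-1 the closest were C32F10.4 (0.99) and nmad-1 (0.97). For spds-1 they were ads-1 (0.97) and epg-9 (0.96), and for catp-5 they were F42C5.9 (0.96) and sphk-1 (0.95). These are the highest of many correlations over 8 libraries and are given as a description.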

How the data were processed

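Whole worms were sequenced in 8 libraries (4 with 5-Ph-IAA, 4 with ethanol), each from 3 ug of total RNA. The deposited values are unnormalised read counts for each gene. The submitters' processing notes name FastQC 0.11.5, TopHat2, HTSeq and DESeq2 without saying what each did. Sources used here do not give the build, annotation or strand setting. The 5 summary lines name no gene and were left out. They hold 47.7% to 48.1% of the counts as reads in no gene and 4.14% to 4.55% as reads with more than 1 alignment. Ensembl release 115 holds 46484 of the identifiers and gave their lengths and locations.

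Genes passing filterByExpr (12021) were tested with edgeR 4.0.16 in R 4.3.3 (TMM, quasi-likelihood, robust, two-sided, Benjamini-Hochberg over all tested genes, threshold 0.05), without and with the replicate number as a block. SE is the absolute log2 fold change over the square root of F. Deviations from group means (log2 CPM, prior count 2) correlated at 0.100 to 0.147 between libraries of the same number and at -0.099 to 0.0103 otherwise. The deviations of a gene sum to 0 over the libraries of a group. Positive values for the same number therefore lower the others, and the contrast between these ranges is no test of the pairing. The lowest value for the same number, 0.1002, passed the bar of 0.1 by a very small margin. Replicates of a group differed by more than sampling noise (chi-square over its degrees of freedom, 2.46 to 8.12). The labels do not say whether replicates were separate cultures, and p-values then reflect only how these libraries vary, which may be technical. Alternatives were DESeq2, limma-voom (limma 3.58.1), other factors and filters, and leaving out libraries. The edgeR fits were run on simulated counts with the same spread for every gene and no effect of the replicate number, which does not check the use of the block. The members and lists were chosen with earlier results of these data known. Named genes are the members, daf-15, list genes past the threshold in either fit, the widest and most abundant gene of each list, every gene of the ornithine, hypusine and P5 lists, and the 2 genes most correlated with each member; others are neighbours by position or are said to be named after their values were seen. Of 117 list symbols 114 matched 1 identifier.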

Additional observations from a re-analysis of the deposited data

Results flagged for a closer look

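The level of smd-1 in ethanol replicate 2, 492.0 CPM, stood apart from the other ethanol libraries, which lay between 441.2 and 445.9 CPM. The gap to the nearest library was 0.908 of the group's range, above Dixon's 95% critical value for 4 samples. It was 1 of 8 groups of values compared in this way, and about 1 in 20 groups is expected to exceed the value by chance. In 5-Ph-IAA replicate 2, the library of the same number, smd-1 was also the highest of its group, at 471.7 CPM. Without ethanol replicate 2 the log2 fold change of smd-1 was -0.036, against -0.075 with all libraries.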

How the results depend on the processing

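Over 20 alternatives the log2 fold change of odc-1 lay between 0.52 and 0.73 and was above 0 in each, and those of smd-1 (-0.12 to -0.036) and spds-1 (-0.13 to -0.056) were below 0 in each. That of catp-5 lay between -0.060 and 0.092 and took both signs. None moved by more than 1 SD of its replicates. The number of the 4 genes past the threshold was 0 in edgeR with filterByExpr and without the block. It was also 0 with the stricter filter and with limma-voom, neither with the block. Over the 20 alternatives it was 0 in 10 and 1 in 10. It was 1, odc-1, with no filter and with DESeq2, both also without the block. It was again 1, odc-1, with the replicate block and with blocked DESeq2. Leaving out 1 library gave 0 to 1 (1 without 5-Ph-IAA replicate 1 or ethanol replicate 3), and leaving out 1 pair with the replicate block gave 1 each time. The 4 genes were picked with their values known, so nothing is read from how often odc-1 passed. Over all genes 12 passed in edgeR with filterByExpr and without the block, and 88 passed with the replicate block. With no filter 62 passed, with the stricter filter 5, with DESeq2 22 and with blocked DESeq2 21. Leaving out 1 library gave 6 to 19, and leaving out pairs 1 to 4 in turn with the block gave 82, 51, 78 and 92. Of the pathway list genes 0 passed in edgeR with filterByExpr and without the block. With the replicate block 2 passed, with no filter and no block 2, and with blocked DESeq2 1. Leaving out 1 library gave 0, and leaving out 1 pair with the block gave 2. Of the tissue markers 0 passed, and 0 to 1 when leaving out 1 pair with the block (unc-54, named after its values were seen, log2 -0.23, edgeR adjusted p = 0.0384 without pair 2). With all libraries the log2 fold change of unc-54 was 0.010 (SE 0.208) without the block and 0.0061 (SE 0.237) with it. The cause of these moves was not tested.

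Per coding length the mean over 8 libraries was 402.6 CPM per kb for smd-1 (199.5 per kb of exon), 33.6 for spds-1 (31.1) and 4.33 for catp-5 (3.48), and per kb of longest transcript it was 33.5 for spds-1. Per coding length odc-1 stood at 38.1 CPM per kb with 5-Ph-IAA, above spds-1 at 32.5, and at 25.02 CPM per kb with ethanol, below spds-1 at 34.7. Of the 8 gene and member combinations named for similar patterns, 8 were the same with a prior count of 0.5 and 3 with log2 CPM in place of deviations. Depth limits catp-5 most, at 99 to 173 reads per library.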
